A study of Mus musculus with 11 samples.

Results

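The miR-30 family was examined on both arms of its hairpins in mouse embryonic stem cells (mES cells) with and without Trim71, an RNA-binding TRIM-NHL protein whose own mRNA is a target of the let-7 miRNAs. Members were taken by name, as every table entry from the hairpins miR-30a, miR-30b, miR-30c, miR-30d and miR-30e, whatever the copy or the arm. This gave 11 members of the 592 miRNAs in the table, 5 from the 5p side and 6 from the 3p side, and none of their values was at the lower limit of the table. The entry miR-30f lies outside this definition and is given only beside miR-30e-3p. Small RNA had been sequenced from 11 libraries of 2 clones of male C57BL/6 mES cells kept with FCS and LIF. All carried floxed Trim71 alleles, in which the last exon can be deleted, and a CreERT2 recombinase expressed from Rosa26. According to the labels, Trim-/- cells received 500 nM 4-hydroxytamoxifen for 2 days and were cultured for at least 7 days more, and the cells were sorted magnetically for the stem cell antigen SSEA-1. According to the study's methods, Trimfl/fl control cells received the solvent DMSO. Trim71 mRNA is not a miRNA and was not measured here, so the deletion could not be checked in these libraries.

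The labels number the libraries by day. On days 1, 5 and 6 clone 1 gave a library of both genotypes, and on days 3 and 4 clone E3 did so, while on day 2 clone E3 gave a Trimfl/fl library without a Trim-/- partner. The values are read counts that the authors normalized, corrected for batch and raised to at least 1, and the number of reads behind a library is unknown. For each of the 11 members, adding the Trim-/- and Trimfl/fl values of a day gave 1 constant for all days, with deviations under 0.1%. The values of day 2 were, with the same tolerance, the Trimfl/fl mean of the other days, and that library was left out. A high Trim-/- value therefore always came with a low Trimfl/fl value of the same day, the SDs of both genotypes were equal, and each day gave 1 difference. The spread between days in the level of both libraries together is no longer in these values, and that in the differences remains. The summed values of a library ran from 3751519 to 5551715 in Trim-/- cells and from 2742673 to 4332525 in Trimfl/fl cells. Nothing in the labels says that the libraries of 1 clone came from separate derivations, so that the tests measure the spread between days.

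A miRNA hairpin is cut by Drosha and then Dicer into a short duplex, 1 strand of which is loaded into an Argonaute protein and finds its target mRNAs mainly through its seed, bases 2 to 8 from the 5′ end. Both strands, named 5p and 3p by the side of the hairpin they come from, can be recovered by sequencing. The miR-30 family has a common 5p seed, its members come from several loci, and it is known for roles in differentiation and in keeping epithelial identity. The miR-30a hairpin is also the usual backbone for artificial short hairpin RNAs.

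The mature sequences of 7 of the 11 members were found in RefSeq (GRCm38.p6) and are printed 5′ to 3′ with the seed in capitals, because the seeds and the near identity of some members bear on how the values can be read. The sequences of miR-30b and miR-30d are not printed.

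miR-30a-5p: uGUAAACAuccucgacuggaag
miR-30c-5p: uGUAAACAuccuacacucucagc
miR-30e-5p: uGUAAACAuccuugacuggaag
miR-30a-3p: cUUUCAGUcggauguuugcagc
miR-30e-3p: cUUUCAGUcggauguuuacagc
miR-30c-1-3p: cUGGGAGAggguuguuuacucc
miR-30c-2-3p: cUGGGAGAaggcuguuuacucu

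These members fell into 3 seed groups. The 5p members had the seed GUAAACA, miR-30a-3p and miR-30e-3p had UUUCAGU, and both miR-30c 3p members had UGGGAGA. Of the 463 miRNAs of the table with a RefSeq sequence, none outside the family had any of these seeds. The 5p members were identical over their first 12 bases. Counted from 1 at the 5′ end, miR-30a-5p and miR-30e-5p differed at a single position (C13U, from miR-30a-5p to miR-30e-5p), and so did miR-30a-3p and miR-30e-3p (G18A). The authors aligned reads with a tool that tolerates mismatches, so how reads were split between miR-30a and miR-30e is uncertain on both arms. The 3p members of miR-30c differed at 3 positions. The miR-30c-5p sequence is the same in both miR-30c hairpins, so its reads cannot be assigned to 1 of the loci.

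The hairpins come from 3 pairs of genes in GENCODE M21 on GRCm38. Mir30a (chr1:23272269-23272339, plus strand) lies in no other annotated gene, and Mir30c-2 (chr1:23291701-23291784, plus strand), which is 19361 bases further on, overlaps an exon of the lincRNA Gm27028. Mir30e (chr4:120772606-120772697) and Mir30c-1 (chr4:120769534-120769622), both on the minus strand with 2983 bases between them, are in introns of Nfyc, on its coding strand. Nfyc encodes a subunit of the transcription factor NF-Y. Mir30b (chr15:68337415-68337510) and Mir30d (chr15:68341208-68341289), both on the minus strand with 3697 bases between them, overlap exons of non-coding transcripts, Gm26621 for Mir30b and Gm20732 and Gm37296 for Mir30d.

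The level of the members was described first, over the 10 libraries of the 5 pairs. The arms miR-30a-5p, miR-30c-5p and miR-30d-5p, made up most of the family and were the 38th, 41st and 45th most abundant miRNAs of the table. Their mean values were 9965, 8237 and 6885. They were followed by miR-30e-5p at 2114, miR-30e-3p at 1600.4, miR-30a-3p at 1326 and miR-30b-5p at 942. The other 3p members were lower, with means of 443 for miR-30c-2-3p, 89.9 for miR-30d-3p, 78.4 for miR-30b-3p and 64.1 for miR-30c-1-3p. Of the 10 steps in this order, only those from miR-30d-5p to miR-30e-5p (a 3.26-fold ratio of means) and from miR-30c-2-3p to miR-30d-3p (4.93-fold) separated members whose ranges over the libraries did not overlap. At the other 8 steps the ranges overlapped. The order of miR-30e-3p above miR-30a-3p nevertheless held in 10 of 10 libraries, at a ratio of 1.21, whereas miR-30c-5p exceeded miR-30d-5p in 6 of 10. The 7 members with a sequence are 22 or 23 bases long, so that a comparison of their levels is little affected by length. Differences in ligation and amplification between sequences were not measured.

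**Figure D1:**
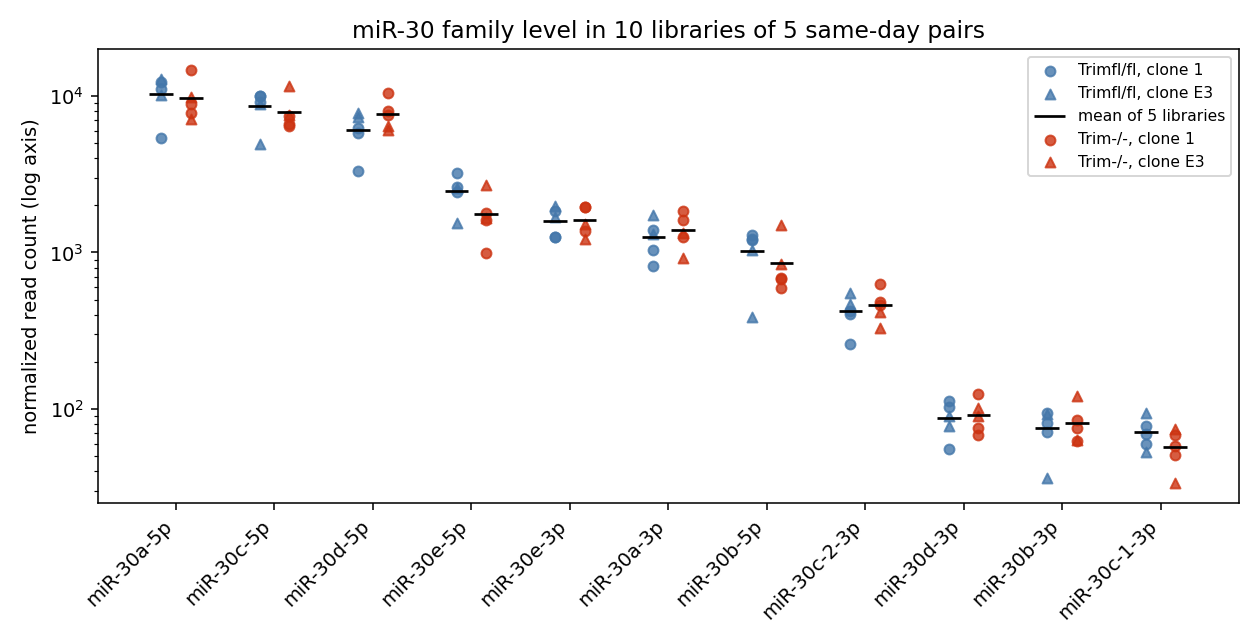
Normalized read count (log axis) of the 11 members in each of the 10 paired libraries, by genotype (colour) and clone (circle, clone 1, and triangle, clone E3), with a bar at the mean of 5 libraries. The members span from 33.95 to 14585, and the ranges of the genotypes are separate in 0 of 11, against 68 of all 592 miRNAs (11.5%).

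Summed over the 5p side, the family reached 27815 ± 4972 (SD, n = 5) in Trim-/- cells and 28470 ± 4972 (SD, n = 5) in Trimfl/fl cells, a difference far smaller than the SD on this scale. The 3p side summed to 3692 ± 746 and 3512 ± 746 (SD, n = 5 each). As a share of the summed values of a library, which were higher on average in Trim-/- cells, both arms together were 0.716% ± 0.125 in Trim-/- cells and 0.874% ± 0.126 in Trimfl/fl cells (SD, n = 5 each). This share was lower in Trim-/- cells on 4 of 5 days, by a mean difference that exceeded the SD and was not tested, and the ranges of 0.617% to 0.927% and 0.663% to 0.979% overlapped. Within the 5p sum, miR-30a-5p held 34.1% ± 5.1 in Trim-/- and 35.8% ± 6.85 in Trimfl/fl cells, and miR-30c-5p held 28.7% ± 6.45 and 30.5% ± 9.06 (SD, n = 5 each). The share of miR-30d-5p was 27.8% ± 4.85 against 21.4% ± 5.77, and that of miR-30e-5p was 6.23% ± 1.61 against 8.73% ± 1.78 (SD, n = 5 each). Within the 3p sum, miR-30e-3p and miR-30a-3p were the main members in every library, with miR-30e-3p at 43.4% ± 1.14 and 45.5% ± 0.927 (SD, n = 5 each). The ranges of this miR-30e-3p share, 41.4% to 44.3% in Trim-/- and 44.5% to 47.0% in Trimfl/fl cells, did not overlap. Those of the shares of every other member did. No such shares were computed for miRNAs outside the family, so this separation has no background rate and is not read as a result. The shifts of miR-30a-5p and miR-30c-5p between genotypes were smaller than their SDs, those of miR-30d-5p, miR-30e-5p and miR-30e-3p were larger, and shares were not tested.

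The ratio of the arms was then compared between hairpins, on the log2 scale of (5p value + 1) over (3p value + 1). Averaged over the libraries, all 6 hairpins had more 5p than 3p. The excess was 127-fold for miR-30c-1, 74.8-fold for miR-30d, 18.5-fold for miR-30c-2, 11.5-fold for miR-30b and 7.44-fold for miR-30a, and the 5p arm was the higher in 10 of 10 libraries for each. The hairpin miR-30e stood apart, with a mean ratio of 1.27 and more 5p than 3p in only 6 of 10 libraries. Among the 208 hairpins of the table with both arms, the larger arm exceeded the smaller by a median of 10.3-fold, and miR-30e ranked 200th by the size of this imbalance. Mean ratios favoured the 5p arm in 110 hairpins and the 3p arm in 98. Since miR-30c-5p is listed once for both loci, its ratio to each 3p arm may exceed the ratio of the locus itself. Against both miR-30c 3p arms together the ratio was 8.05 to 30.4 (median 16.3), and miR-30c-2-3p held 78.8% to 92.5% of these 3p reads.

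The arm ratio of miR-30e was 0.722, 1.09, 2.2, 0.919 and 0.829 in the Trim-/- libraries of days 1, 3, 4, 5 and 6. In the Trimfl/fl libraries of the same days it was 1.77, 1.53, 0.777, 1.95 and 2.09. The 3p arm was thus the higher in 3 of 5 Trim-/- libraries and in 1 of 5 Trimfl/fl libraries, and the ratio was lower in Trim-/- cells on 4 of 5 days. The change was -0.54 ± 0.54 on the log2 scale (SE, limma, 5 pairs), with an adjusted p of 0.847 and an exact p of 0.375 by permutation of the genotypes within days. It therefore did not exceed the spread between days. Without the pair of day 4 it was -1.05, with an unadjusted p of 0.0373 in limma, and past a 1.5-fold change, as were 12 of all 208 hairpins (5.77%) without that pair, in place of 4 with it. It was -0.35 without day 1, -0.34 without day 6, -0.40 without day 5 and -0.55 without day 3, so that its size rested on single days.

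In the other hairpins the log2 change of the arm ratio was 0.30 ± 0.42 for miR-30d, 0.22 ± 0.44 for miR-30c-1, -0.24 ± 0.50 for miR-30a, -0.25 ± 0.60 for miR-30c-2 and -0.37 ± 0.41 for miR-30b (SE, limma, 5 pairs). The ratio ranges of the genotypes were separate in 0 of 6 hairpins, against 5 of all 208 (2.4%). In limma, 0 of 6 miR-30 hairpins passed a change over 1.5-fold with an unadjusted p under 0.05, and 0 had an unadjusted p under 0.05. Of all 208 hairpins 4 passed, or 1.92%, with 4 at an unadjusted p under 0.05 and 0 at an adjusted p under 0.05. A smaller change in a single miR-30 hairpin cannot be told from none with 5 pairs, since the 95% interval of miR-30e ran from 0.282-fold to 1.68-fold.

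**Figure D2:**
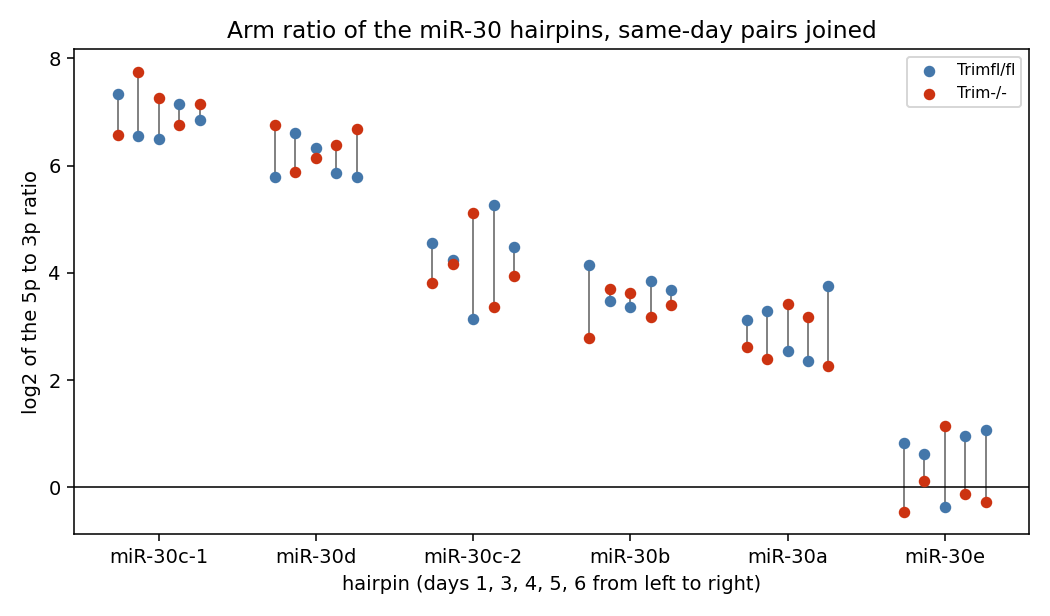
Log2 of the 5p to 3p ratio of the 6 miR-30 hairpins in the same-day pairs of days 1, 3, 4, 5 and 6 (left to right in each hairpin), with the genotypes of a day joined. Only miR-30e, at -0.47 to 1.14, crosses the line of equal arms, and joined points lie in both orders in every hairpin.

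The members were then compared between Trim-/- and Trimfl/fl cells. In limma on log2(value + 1) with the day as a block, 0 of 11 members passed a fold change over 1.5 with an unadjusted p under 0.05, the thresholds of the study, and 0 had an unadjusted p under 0.05. Of all 592 miRNAs 32 passed (5 higher and 27 lower in Trim-/- cells, but 2 and 48 with library totals and 42 and 59 without the day block), which is 5.41%, and 0 reached an adjusted p under 0.05, the smallest being 0.607. At this background rate a count of 0 in a list of 11 is not a result about the members. The estimated difference was above 0 in 6 members and below 0 in 5, with a median of 0.01 on the log2 scale against 0.03 over all miRNAs. Estimates ran from -0.53 for miR-30e-5p to 0.37 for miR-30d-5p. Of the alternatives, dividing each library by its total moved the median of all miRNAs to -0.24, and the estimates of miR-30a-3p, miR-30b-3p, miR-30c-2-3p, miR-30d-3p and miR-30e-3p, all between 0.01 and 0.15, then fell below 0. Direction was therefore not fixed by the data for these members.

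**Figure D3:**
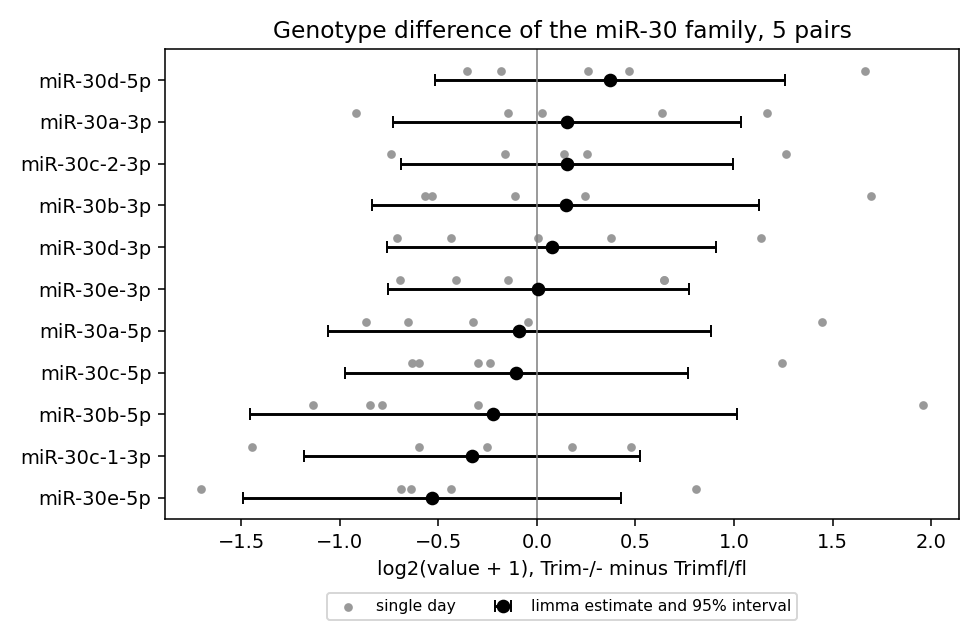
Difference between Trim-/- and Trimfl/fl on the log2(value + 1) scale for each member, as the limma estimate with its 95% interval (black, 5 pairs) and the 5 single-day differences (grey). Every interval includes 0, and the estimates run from -0.53 to 0.37.

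The 5p arm miR-30e-5p had the lowest estimate of the family over the 5 pairs. Its values in Trim-/- cells were 993, 1652, 2690.0, 1796 and 1618 on days 1, 3, 4, 5 and 6, and in Trimfl/fl cells 3235, 2576, 1538, 2432 and 2610.5. The Trim-/- value was the lower on 4 of 5 days, and day 4 went the other way, so that the ranges overlapped. The fold change was 0.691 (95% interval 0.356 to 1.34), with an adjusted p of 0.645 in limma and an exact p of 0.312 by permutation within days, and the smallest p that 5 pairs can give is 0.0625.

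The miR-30b-5p arm followed the same order of days. Its values were 589, 844, 1498, 691 and 673 in Trim-/- cells and 1294, 1039.6, 385, 1192 and 1210.2 in Trimfl/fl cells. On day 4 the Trim-/- library held the highest and the Trimfl/fl library the lowest value of all 10, and on the other 4 days Trim-/- was the lower. The fold change was 0.858 (0.364 to 2.02), the widest interval among the members on the log2 scale, with an adjusted p of 0.861 in limma and an exact p of 0.75.

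The third such arm was miR-30c-5p, at 6559, 7557, 11580.2, 6458 and 7393 in Trim-/- cells and 9915, 8918, 4894, 10016 and 9081 in Trimfl/fl cells. It too was lower in Trim-/- cells on 4 of 5 days and higher on day 4. The fold change was 0.930 (0.509 to 1.70), with an adjusted p of 0.892 in limma and an exact p of 0.875.

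In these 3 arms, which were set side by side after their values had been seen, the direction was the same on each of the 5 days, although miR-30b and miR-30e come from different chromosomes. Of all 592 miRNAs, 66 (11.1%) had this order, higher in Trim-/- cells on day 4 alone. Without the pair of day 4, miR-30b-5p (-0.77 on the log2 scale, unadjusted p = 0.0312 in limma) and miR-30e-5p (-0.87, unadjusted p = 0.0398) passed the thresholds, so that 2 of 11 members did, and no member had an adjusted p under 0.05. Without the pair of day 1, by contrast, miR-30e-5p was at -0.24, above miR-30c-1-3p at -0.46, and miR-30b-5p was at 0.0067. Over all miRNAs the count rose from 32 to 67 (11.3%) without the pair of day 4 and fell to 16 without that of day 1. Day 4 is 1 of 2 days of clone E3, and the other, day 3, went the way of clone 1 in the 3 arms.

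The most abundant arm, miR-30a-5p, was at 7746, 7062, 9801, 14585 and 8842 in Trim-/- cells and 12183, 12868, 10128, 5345 and 11087 in Trimfl/fl cells on days 1, 3, 4, 5 and 6. It was lower in Trim-/- cells on every day but day 5, when it was 2.73-fold higher. The fold change was 0.940 (0.479 to 1.84), with an adjusted p of 0.939 in limma and an exact p of 0.812.

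The arm with the highest estimate over the 5 pairs was miR-30d-5p, at 7504, 6041, 6450.3, 10468 and 7986 in Trim-/- cells and 6266, 7729, 7319.8, 3302 and 5784 in Trimfl/fl cells. It was higher in Trim-/- cells on the 3 days of clone 1 and lower on both days of clone E3. The fold change was 1.29 (0.700 to 2.39), with an adjusted p of 0.681 in limma and an exact p of 0.438. The estimate of 0.37 on the log2 scale rested on day 5, without which it was 0.047 and below that of miR-30b-3p (0.21), and it was 0.10 with library totals. Mir30d is the genomic neighbour of Mir30b, and the 5p arms of the pair went the same way on 1 of 5 days.

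Day 5 was also the day on which 4 of 6 3p members were higher in Trim-/- cells. The 3p arm of miR-30a, which differs from that of miR-30e by 1 base, was at 1259.7, 1339, 918, 1613 and 1835 in Trim-/- cells and 1393, 1313, 1734, 1039.2 and 817 in Trimfl/fl cells. The 3p arm of miR-30e was at 1375, 1518, 1221, 1954 and 1952 in Trim-/- cells and 1826, 1682, 1979.6, 1247 and 1249 in Trimfl/fl cells. Both were higher in Trim-/- cells on days 5 and 6 and lower on day 4, and their directions differed only on day 3, when miR-30a-3p was higher by 0.03 on the log2 scale. The fold changes were 1.11 (0.603 to 2.05) for miR-30a-3p and 1.01 (0.592 to 1.71) for miR-30e-3p, and the adjusted p-values in limma were 0.862 and 0.991. The 2 arms of miR-30e went the same way on 2 of 5 days.

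The miR-30f entry comes from the strand opposite to Mir30e, at the same position. The capitals mark the 19 bases over which RefSeq's miR-30f and miR-30e-3p are complementary.

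miR-30f: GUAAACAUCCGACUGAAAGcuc
miR-30e-3p: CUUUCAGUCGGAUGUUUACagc

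The first 10 bases of miR-30f are also bases 2 to 11 of miR-30e-5p. Its value was 4.67% to 9.38% of that of miR-30e-3p in the same library (median 7.56%). It was at 123, 108, 57.1, 170.1 and 169 in Trim-/- cells and 119.7, 134, 186, 72.6 and 74.2 in Trimfl/fl cells on days 1, 3, 4, 5 and 6. Its direction matched that of miR-30e-3p on 4 of 5 days, with day 4 low and days 5 and 6 high in Trim-/- cells. Whether strand was used in the alignment is not given in the sources used here.

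Among the remaining 3p members, miR-30b-3p and miR-30c-1-3p, set side by side after their values had been seen, went the same way on 5 of 5 days. Both were higher in Trim-/- cells on days 1 and 4 and lower on days 3, 5 and 6. This sequence was found in 23 of all 592 miRNAs (3.89%), which is not the share of pairs that agree on all days. The miR-30c-2-3p arm was at 332 to 626 in Trim-/- cells and 259.8 to 554 in Trimfl/fl cells, and its fold change was 1.11 (0.619 to 1.99). The lower miR-30c-1-3p was at 33.95 to 74.8 and 53.4 to 94.3, with a fold change of 0.796 (0.441 to 1.44). These seed partners went the same way on 2 of 5 days. The miR-30b-3p arm was at 62.9 to 120.4 and 36.5 to 93.9 (fold change 1.11, 0.560 to 2.19), and its direction was that of miR-30b-5p on 4 of 5 days. The miR-30d-3p arm was at 92.0 ± 22.05 and 87.9 ± 22.05 (SD, n = 5 each; fold change 1.05, 0.589 to 1.88), and its direction was that of miR-30d-5p on 1 of 5 days.

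**Figure D4:**
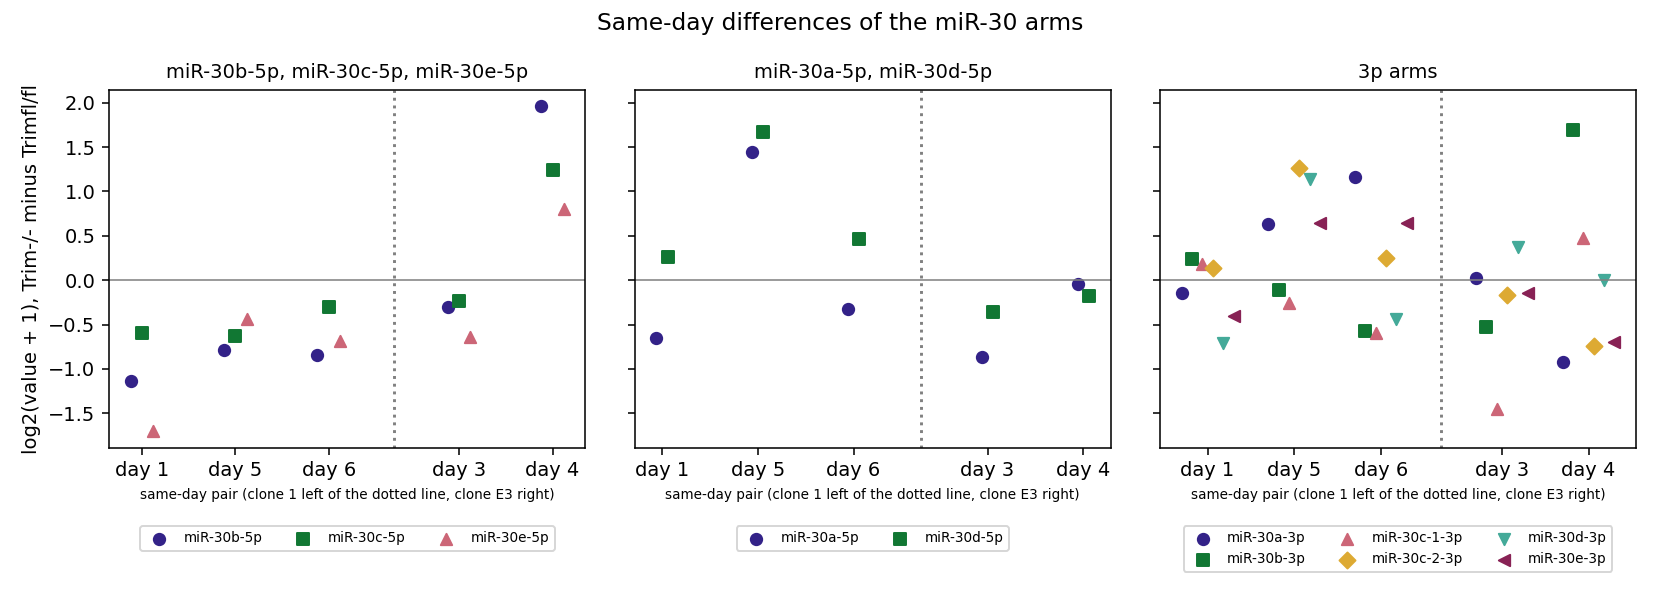
Same-day difference between Trim-/- and Trimfl/fl on the log2(value + 1) scale for each member, with the days of clone 1 left and those of clone E3 right of the dotted line. In the left panel all 3 arms lie below 0 on days 1, 5, 6 and 3 and above 0 on day 4, and in the middle panel both arms are highest on day 5.

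The SD of the 5 same-day differences was 0.61 to 1.25 on the log2 scale in the members, against a median of 0.93 over all miRNAs. It lay below this median in 10 of 11 members, between the 27.0th and 49.8th percentile of the table, and above it in miR-30b-5p, at the 64.2nd. Summed over the 5p side, the log2 difference was -0.49, -0.52, 0.40, 0.61 and -0.17 on days 1, 3, 4, 5 and 6. Summed over the 3p side it was -0.23, -0.10, -0.69, 0.69 and 0.70. The sides thus went opposite ways on days 4 and 6. The miRNAs outside the family whose day differences were most like those of the 5p sum were miR-741-3p (Pearson's r 0.97), miR-3068-3p (0.89) and miR-146a-5p (0.88), as a description over 5 days in which same-day values mirror each other.

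The clones were compared by the genotype-by-clone term of limma. It had an unadjusted p under 0.05 in 0 of 11 members, against 33 of 592 miRNAs (5.57%), and for the arm ratio in 0 of 6 miR-30 hairpins, against 11 of 208 (5.29%). An adjusted p under 0.05 was reached by 1 of 592 miRNAs and by no member. The days of the clones went fully opposite ways in 2 of 11 members, against 48 of 592 miRNAs (8.11%), and in the arm ratio of 2 of 6 hairpins, against 26 of 208 (12.5%). The smallest p of the members was that of miR-30b-5p, for which the difference of clone E3 minus that of clone 1 was 1.75 (95% interval -0.32 to 3.82, adjusted p = 0.627 in limma). In clone 1 alone, miR-30b-5p was lower in Trim-/- cells by 0.92 on the log2 scale (unadjusted p = 0.0396 in limma) and was the only 1 of 11 members past the thresholds, which 59 of all 592 miRNAs (9.97%) passed in that clone.

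Markers of the cells were checked with lists of miRNAs. The 27 arms that define mES cells (miR-290 to miR-295, miR-302 and miR-367) made up 55.5% to 59.8% of the summed values of a library. Their median difference was -0.0048 on the log2 scale, against 0.03 over all miRNAs, and 0 passed the thresholds. This median joined arms that went different ways, with 13 estimates above 0 and 14 below. Every miR-302 and miR-367 arm was below 0, from -0.28 for miR-302b-3p to -1.85 for miR-302c-5p. The latter had 1 value at the lower limit. The estimates above 0 were all of miR-290 to miR-295, up to 0.66 for miR-292b-5p, and other arms of that cluster were below 0. The 8 fibroblast arms (of miR-143, miR-145a, miR-199a and miR-199b) had 6 estimates above 0, 0 past the thresholds and a median of 0.15. Nearly all of their sum came from miR-143-3p, with a mean of 23860, and the next highest mean was 253 for miR-145a-5p. The fibroblast arms summed to 0.364% of the Trim-/- library of day 4 and 0.815% of its Trimfl/fl partner, the lowest and highest of the 10 libraries, while 0.476% to 0.713% was found on the other days. On the scale of summed values day 4 did not stand alone. The sums were 13640 in Trim-/- and 35331 in Trimfl/fl cells on day 4, and 35538 and 13413 on day 5. The part of the fibroblast arms in the values of the miR-30 arms on these days was not tested. The 8 neural arms (of miR-9, miR-124, miR-128 and miR-219a) had 7 estimates above 0, 0 past the thresholds and a median of 0.55. They summed to 0.158% to 0.182% of a Trim-/- library and 0.124% to 0.155% of a Trimfl/fl library, which do not overlap, whereas their summed values of 5927 to 9249 and 3393 to 6715 did. How often such shares separate over all miRNAs was not computed. Most of the sum came from miR-9-5p and miR-128-3p, with means of 3012 and 2688, followed by miR-124-3p at 324. The part of the neural arms in the miR-30 values was not tested. The 3 blood arms (miR-142 and miR-451a) had 3 estimates below 0 and a median of -1.11, with miR-142-3p past the thresholds.

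The miR-29 family and the family of miR-148 and miR-152 were counted in the same way. All 3 miR-29 arms had estimates below 0 (median -1.27) and 0 passed the thresholds, and of the 6 arms of the other family 2 were above and 4 below 0 (median -0.04) and 0 passed. The miR-30 family, with a median of 0.01, was not tested against them.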

How the data were processed

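The deposited table holds 592 miRNAs in 11 libraries. The authors trimmed the reads, aligned them with Bowtie2 2.2.1 to mm10 and miRBase, normalized the counts with DESeq2 defaults, applied a batch correction, raised what lay under 1 to 1 and dropped miRNAs that were low in both groups. The deposited values are thus a normalized signal in units of read counts, no raw counts were used here, and the precision comes from the 5 pairs. The labels name a TruSeq kit and a paired-end run, and the methods name a small RNA kit, a lower 4-hydroxytamoxifen dose and a shorter culture.

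The genotypes were compared with limma 3.58.1 in R 4.3.3 on log2(value + 1), in a model of genotype with a day block and Benjamini-Hochberg adjustment over the whole table. Adding 1 understates changes of low values. Arm ratios were fitted in the same way over the 208 hairpins with both arms. The pairing comes from the labels, which give 1 library of each genotype and the same clone per day, and from the interaction of day and clone in the output of the study's own model. Deviations of same-day libraries from their genotype means correlated between -0.65 and -0.41 across miRNAs, which equal same-day sums impose. Single values were tested two-sided by exact permutation within days (32 patterns). Every member is named. Of other miRNAs only the 3 most like the 5p sum by Pearson's r of the day differences, miR-30f and those of the lists are named. The members and lists were chosen with earlier results of these data known. The alternatives were the fit without the day block, other scalings (library totals and median-of-ratios size factors), a pseudocount of 10, a mean of at least 100, limma with trend, miRNAs without a floored value, each pair left out and each clone alone. Python 3.11.15 with pandas 2.3.3 and matplotlib 3.10.9 was used for descriptions and plots.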

Additional observations from a re-analysis of the deposited data

Results flagged for a closer look

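In groups of 5 values, a single value lay far from the others in 4 of the 34 groups tested, by a rule that flags about 1 in 20 by chance. The groups were those of the members and miR-30 hairpins only. How often the rule flags a group over all miRNAs was not computed, so the count is not read as an excess. All 4 were libraries of day 4. They were miR-30b-5p at 1498 in Trim-/- and 385 in Trimfl/fl cells, and miR-30c-5p at 11580.2 in Trim-/- and 4894 in Trimfl/fl cells. Because the values of a day mirror each other, each miRNA counts here as 1 event. Whether these pairs differ from the others in culture or library preparation was not tested.

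In 4 of 17 items, all days of clone 1 went one way and both days of clone E3 the other. Among all miRNAs and hairpins, 48 of 592 miRNAs (8.11%) and 26 of 208 hairpins (12.5%) did so, and the count is not read as a pattern of the family. The difference of clone E3 minus that of clone 1 was -1.003 on the log2 scale for miR-30c-2-3p (adjusted p = 0.648 in limma) and -1.07 for miR-30d-5p (adjusted p = 0.648 in limma). For the arm ratio it was 1.02 in miR-30b (adjusted p = 0.593 in limma) and -1.26 in miR-30d (adjusted p = 0.570 in limma). None of these clone differences passed the test.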

How the results depend on the processing

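Each of the 5 pairs was left out in turn, and 4 of 232 values of members and hairpins under all alternatives newly passed the thresholds, 3 of them without day 4 and 1 in clone 1 alone. The unadjusted p was at least 0.280 in each of the 35 that changed sign. With no replicate block, 101 miRNAs and 17 hairpins passed in place of 32 and 4, and no member did. With library totals 50 miRNAs passed, with a mean of at least 100 15 miRNAs and 0 hairpins (limma, with 8 members left in), in clone 1 alone 59 miRNAs, 14 hairpins and 1 member, and in clone E3 alone 7 hairpins. Leaving out 1 pair gave 16 to 67 miRNAs, 0 to 12 hairpins, 0 to 2 members and 0 to 1 miR-30 hairpin, with the highest counts without day 4.

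Signs turned as follows, with the range of every value without 1 pair, and the cause was not tested. With library totals the log2 difference was -0.12 for miR-30a-3p, -0.12 for miR-30b-3p, -0.12 for miR-30c-2-3p, -0.19 for miR-30d-3p and -0.26 for miR-30e-3p. Without 1 pair it ran from -0.10 to 0.42 for miR-30a-3p, -0.47 to 0.11 for miR-30a-5p, -0.24 to 0.32 for miR-30b-3p, -0.77 to 0.0067 for miR-30b-5p, -0.13 to 0.37 for miR-30c-2-3p, -0.44 to 0.028 for miR-30c-5p, -0.19 to 0.27 for miR-30d-3p, 0.047 to 0.55 for miR-30d-5p, -0.87 to -0.24 for miR-30e-5p, -0.53 to -0.049 for miR-30c-1-3p and -0.15 to 0.18 for miR-30e-3p. The change of the arm ratio ran from -0.52 to 0.070 for miR-30a, -0.022 to 0.47 for miR-30c-1, -0.81 to 0.16 for miR-30c-2, -0.52 to -0.11 for miR-30b, 0.13 to 0.55 for miR-30d and -1.05 to -0.34 for miR-30e. In clone 1 alone the difference was 0.16 for miR-30a-5p, -0.15 for miR-30b-3p and -0.0041 for miR-30d-3p, and the arm ratio changed by -0.28 for miR-30c-1. In clone E3 alone the difference was -0.44 for miR-30a-3p, 0.83 for miR-30b-5p, -0.45 for miR-30c-2-3p, 0.50 for miR-30c-5p, -0.27 for miR-30d-5p, -0.42 for miR-30e-3p and 0.083 for miR-30e-5p, and the arm ratio changed by 0.25 for miR-30b, 0.95 for miR-30c-2, -0.46 for miR-30d and 0.50 for miR-30e.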
